A study of Mus musculus with 18 samples.

Results

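Neurofilament and growth cone genes code for structural and regulatory proteins of the axon and of its growing tip. The 10 genes described here, Ina, Nefl, Nefm, Nefh, Stmn2, Stmn3, Gap43, Basp1, Uchl1 and Elavl3, were chosen by name from tables of 34385 genes (knockdown) and 34396 genes (overexpression), and all 10 were found in both. All 18 libraries were used, each group against the control of its own table.

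Neurofilaments are the intermediate filaments of neurons: light, medium and heavy subunits assemble with alpha-internexin, fill the axon and set its calibre. Stathmins bind tubulin and regulate how microtubules grow and shrink, while GAP-43 and BASP1 sit at the inner face of the growth cone membrane and take part in axon growth. In the retina such transcripts are best known from ganglion cells, whose axons form the optic nerve, and several are also made by amacrine and horizontal cells.

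RefSeq promoter sequences (GRCm38.p6, from 250 bases before to 50 bases after the gene start) matched 5 of the 10 genes, Ina, Stmn3, Basp1, Uchl1 and Elavl3. Of these, Ina, Basp1, Uchl1 and Elavl3 are among the genes that were lower in Nmnat1 knockdown than in Nmnat2 knockdown cells, and are shown to see what sequence they have in common. Basp1 lies on the minus strand at chr15:25413715-25414014, Ina on the plus strand at chr19:47014431-47014730, Elavl3 on the minus strand at chr9:22051974-22052273 and Uchl1 on the plus strand at chr5:66675871-66676170. Each is written 5′ to 3′ on the strand of its gene, and capitals mark the GC box, GGGCGG, on either strand.
Basp1: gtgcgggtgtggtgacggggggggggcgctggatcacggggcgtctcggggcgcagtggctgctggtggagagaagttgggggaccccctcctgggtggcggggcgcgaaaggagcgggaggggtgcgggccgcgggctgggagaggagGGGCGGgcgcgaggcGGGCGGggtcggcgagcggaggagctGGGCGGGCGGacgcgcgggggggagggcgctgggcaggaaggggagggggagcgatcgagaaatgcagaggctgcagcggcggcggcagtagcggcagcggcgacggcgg
Ina: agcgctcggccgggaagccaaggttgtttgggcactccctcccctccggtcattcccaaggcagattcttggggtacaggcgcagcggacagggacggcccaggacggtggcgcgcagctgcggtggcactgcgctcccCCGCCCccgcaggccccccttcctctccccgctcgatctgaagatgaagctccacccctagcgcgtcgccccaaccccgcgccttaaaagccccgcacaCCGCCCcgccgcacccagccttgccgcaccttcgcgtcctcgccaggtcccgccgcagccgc
Elavl3: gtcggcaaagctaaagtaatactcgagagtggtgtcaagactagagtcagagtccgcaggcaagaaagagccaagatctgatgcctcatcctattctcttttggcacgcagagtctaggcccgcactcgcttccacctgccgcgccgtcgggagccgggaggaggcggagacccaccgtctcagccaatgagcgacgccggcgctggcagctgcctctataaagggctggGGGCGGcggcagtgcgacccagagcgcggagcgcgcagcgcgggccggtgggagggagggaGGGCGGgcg
Uchl1: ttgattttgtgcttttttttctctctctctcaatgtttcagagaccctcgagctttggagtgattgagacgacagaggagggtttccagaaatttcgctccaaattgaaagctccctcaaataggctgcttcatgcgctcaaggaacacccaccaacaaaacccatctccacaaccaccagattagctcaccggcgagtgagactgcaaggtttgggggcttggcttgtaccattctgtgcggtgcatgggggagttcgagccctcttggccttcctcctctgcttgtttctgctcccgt
The Basp1 promoter held 4 GC boxes, the last 2 of which overlap, and the Ina and Elavl3 promoters held 2 each. The Uchl1 and Stmn3 promoters held 0, and 35.7% of 32851 mouse promoters of this length held at least 1. Base composition followed the same order: G and C made up 78.0% of Basp1, 71.7% of Ina, 65.3% of Elavl3, 50.7% of Uchl1 and 49.7% of Stmn3, against a median of 52.7% over all promoters. The E-box, CANNTG, which 72.3% of promoters held, occurred 2 times in Elavl3, 1 time each in Ina and Stmn3 and 0 times in Basp1 and Uchl1. CCAAT, present in 37.4% of promoters, and TATAAA, present in 13.6%, were searched on both strands and occurred in Elavl3 alone among the 5, 1 time each. None of these 4 motifs was present in all 4 promoters shown, which describes the letters in these windows and not the binding of any factor.

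Retinal explants came from mice of the outbred ICR stock; they were electroporated on postnatal day 0.5 and kept in culture for 3 days, and the cells that carried the co-electroporated EGFP plasmid were sorted for RNA. The knockdown table held 3 libraries each of cells given a plasmid against Nmnat1, a plasmid against Nmnat2 or a scramble plasmid. The overexpression table held 3 libraries each of cells given an Nmnat1 plasmid, an Nmnat2 plasmid or an empty vector. NMNAT1 and NMNAT2 both make NAD, NMNAT1 in the nucleus and NMNAT2 in the cytoplasm and axon, where its loss is known to start axon degeneration. Every group, controls included, shared the strain, the EGFP plasmid, the electroporation and the culture. The labels do not tell whether libraries of 1 group had separate animals or cultures as their source, so that p-values measure the spread between these libraries, which may be technical. Electroporation and the sort limit the sample to transfected cells, and no single retinal cell type was selected. In such bulk samples, fewer cells of a type and less RNA per cell cannot be told apart.

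Levels are given in ppm, parts per 1000000 of the summed values of a library, a scale that accounts for transcript length, so that genes can be set side by side within a table. A gene was tested where 3 or more of the 9 libraries in its table reached 1 ppm; all 10 did so in both tables, as did 22233 genes of the knockdown and 20725 of the overexpression table in all. The deposited values lay on steps of 1 read in genes with a single transcript, from which the relative depth was 0.751 to 1.31 in the knockdown and 0.797 to 1.12 in the overexpression libraries. By these steps the values of Ina rested on about 352 to 2728 reads, those of Stmn3 on 947 to 2899, those of Nefl on 33 to 118 and those of Nefh on 12 to 361. Nmnat1 averaged 7.80 ± 0.64 ppm in Nmnat1 knockdown and 19.0 ± 2.0 ppm in scramble cells (SD, n = 3 each), a log2 fold change of -1.18 ± 0.25 (SE) with a limma adjusted p of 0.130. Nmnat2 was near the detection limit, at 0.503, 1.01 and 1.27 ppm in Nmnat2 knockdown, against 0.624, 2.03 and 6.22 ppm in scramble libraries, so that it does not check that label. Nmnat1 reached 14800 to 27830 ppm under Nmnat1 overexpression, against 18.7 to 22.6 ppm in empty vector libraries, and Nmnat2 reached 20910 to 22820 ppm under Nmnat2 overexpression, against 1.14 to 2.71 ppm. The other enzyme also lay above the empty vector range in each arm, without passing. Nmnat1 had 39.39 to 45.55 ppm under Nmnat2 overexpression (limma adjusted p = 0.0733). Nmnat2 had 3.12 to 6.50 ppm under Nmnat1 overexpression (limma adjusted p = 0.122), and the cause was not tested. The Nmnat2 knockdown library N2_2 stood apart on the first principal component of all genes (128.7, against -31.2 to -5.83 in the other 8), and 6.51% of its signal was mitochondrial, against at most 4.67% elsewhere in that table. In the overexpression table the 3 libraries numbered 1 took values of -91.4 to -24.5 on that component, against 4.14 to 50.0 in the other 6. Results are therefore given with and without those libraries.

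The 10 genes spanned about the same order of levels in every group. In scramble cells Stmn3 was the highest at 158.6 ± 8.6 ppm (SD, n = 3), followed by Basp1 at 89.9 ± 13.7, Uchl1 at 74.1 ± 7.8 and Ina at 25.5 ± 1.6 ppm. Stmn2 at 21.0 ± 2.5 ppm and Gap43 at 12.9 ± 3.7 ppm came next. Elavl3 at 8.07 ± 2.64 ppm, Nefm at 6.17 ± 3.36, Nefh at 1.63 ± 1.17 and Nefl at 1.35 ± 0.96 ppm closed the order. Of these neighbours, Stmn3 and Basp1, Uchl1 and Ina, Ina and Stmn2, and Stmn2 and Gap43 did not overlap in their 3 libraries, and the other neighbours did. Among the filament genes of the list, the alpha-internexin transcript thus had the highest level, above the 3 neurofilament subunits. Vim, an intermediate filament gene outside the list, was higher still, at 57.5 ± 1.4 ppm in scramble cells. In empty vector cells the order was the same but for Nefh and Nefm, which overlapped, and Stmn3 (75.8 ± 2.5 ppm) overlapped Basp1 (74.0 ± 2.4 ppm). Basp1 had the highest mean of the 10, above Stmn3, in Nmnat2 knockdown, Nmnat1 overexpression and Nmnat2 overexpression cells, and in each of these 3 groups the ranges of the pair overlapped.

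**Figure D1:**
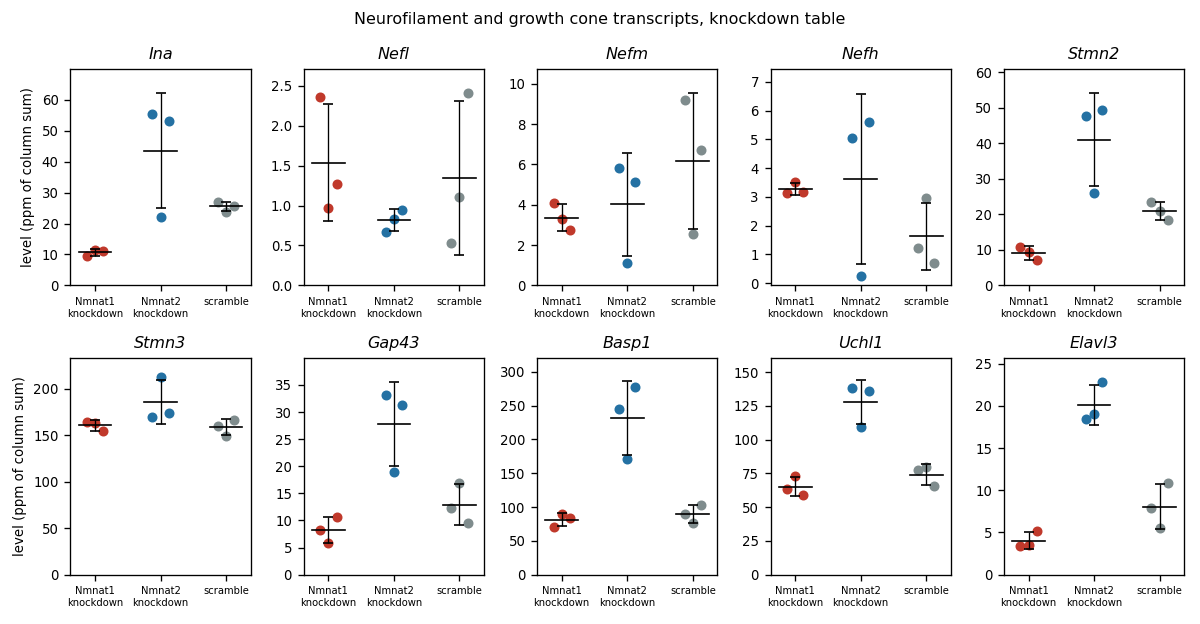
Level of each gene (ppm, linear axes of different height) in the 3 libraries of Nmnat1 knockdown, Nmnat2 knockdown and scramble cells, with the mean and SD as bars. Basp1, Uchl1, Elavl3, Gap43, Stmn2 and, by a small margin, Stmn3 lie higher in all 3 Nmnat2 knockdown libraries than in all scramble libraries. Ina lies lower in all Nmnat1 knockdown libraries.

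The 2 knockdown arms differed from each other in most of these transcripts. Set side by side, Nmnat1 knockdown cells had less of 6 of the 10 (Ina, Stmn2, Gap43, Basp1, Uchl1 and Elavl3) than Nmnat2 knockdown cells, by 0.96 to 2.08 on the log2 scale. Over all genes tested 2.06% passed in that comparison and 0.715% passed as lower, and the 6 calls became 1 when any 1 of the Nmnat1 knockdown libraries was left out. Against scramble cells, Basp1 alone passed the test, higher in Nmnat2 knockdown cells. The 3 neurofilament subunits and Stmn3 did not pass in any comparison of this table.

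Ina, coding for alpha-internexin, had 9.46, 11.5 and 11.2 ppm in Nmnat1 knockdown libraries, 55.4, 22.1 and 53.1 ppm in Nmnat2 knockdown libraries, and 27.1, 23.9 and 25.6 ppm in scramble libraries. All Nmnat1 knockdown libraries lay below all others, whereas the Nmnat2 knockdown libraries lay on both sides of the scramble range with N2_2 below it. Ina was lower in Nmnat1 than in Nmnat2 knockdown cells by limma (log2 fold change -1.82 ± 0.33 SE, adjusted p = 0.0229). Against scramble cells its difference in Nmnat1 knockdown cells was -1.18 ± 0.33, with an adjusted p of 0.232. With N2_2 left out, that fold change stayed at -1.18 with an SE of 0.15 and passed (adjusted p = 0.00153), and Ina in Nmnat2 knockdown cells then passed as higher than in scramble cells (1.06 ± 0.16, adjusted p = 0.00246). Exons of Ina overlap those of Nt5c2 on the opposite strand by 456 bases in GENCODE M21, and these libraries do not mark the strand. Nt5c2 averaged 42.2 ± 6.9 ppm in Nmnat1 knockdown, 41.7 ± 24.7 ppm in Nmnat2 knockdown and 38.0 ± 12.2 ppm in scramble cells.

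Nefl, the light subunit, had 2.36, 0.974 and 1.27 ppm in Nmnat1 knockdown, 0.674, 0.836 and 0.943 ppm in Nmnat2 knockdown and 0.529, 1.10 and 2.41 ppm in scramble libraries. Nefm, the medium subunit, had 4.07, 3.28 and 2.75 ppm in Nmnat1 knockdown, 5.84, 1.12 and 5.12 ppm in Nmnat2 knockdown and 9.21, 2.57 and 6.71 ppm in scramble libraries. The scramble libraries of both genes covered most of the range of the table, and the arms differed from them by less than the spread of the controls. Nefh, the heavy subunit, had 3.13, 3.52 and 3.18 ppm in Nmnat1 knockdown, 5.06, 0.240 and 5.60 ppm in Nmnat2 knockdown and 1.21, 2.94 and 0.717 ppm in scramble libraries. All 3 Nmnat1 knockdown libraries were above the scramble libraries in Nefh, but the difference (log2 fold change 0.79 ± 0.62) did not pass (adjusted p = 0.694), and library N2_2 held only about 12 reads of it. In GENCODE M21, Nefl lies within the span of Nefm on chromosome 14, on the opposite strand, and their exons share 1108 bases. Reads from that shared stretch cannot be assigned to either. The intervals of these 3 genes were wide: in Nmnat2 knockdown against scramble cells the 95% interval of the log2 fold change was -1.19 to 0.60 for Nefl, -1.73 to 0.62 for Nefm and -0.79 to 1.94 for Nefh.

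Stmn2, a stathmin of growing axons, had 10.8, 9.41 and 7.04 ppm in Nmnat1 knockdown, 47.6, 25.9 and 49.4 ppm in Nmnat2 knockdown and 23.5, 21.0 and 18.5 ppm in scramble libraries. The 3 groups did not overlap, with scramble cells in the middle. Nmnat1 knockdown cells had less Stmn2 than Nmnat2 knockdown cells by limma (log2 fold change -2.02 ± 0.29, adjusted p = 0.00826). Neither arm passed against scramble cells (-1.14 ± 0.29 in Nmnat1 knockdown, adjusted p = 0.198, and 0.88 ± 0.29 in Nmnat2 knockdown, adjusted p = 0.178). Both passed with N2_2 left out (adjusted p = 0.00599 for Nmnat1 and 0.00490 for Nmnat2 knockdown). Stmn3, a related neuronal stathmin, had 164.3, 163.4 and 154.1 ppm in Nmnat1 knockdown, 169.9, 212.5 and 174.0 ppm in Nmnat2 knockdown and 160.1, 149.3 and 166.4 ppm in scramble libraries. Stmn3 varied little in this table, with a log2 fold change of 0.02 ± 0.15 in Nmnat1 knockdown (95% interval -0.32 to 0.36) and 0.22 ± 0.15 in Nmnat2 knockdown cells (95% interval -0.12 to 0.56).

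Gap43, coding for the growth-associated protein of the growth cone membrane, had 8.29, 5.92 and 10.7 ppm in Nmnat1 knockdown, 33.2, 18.9 and 31.2 ppm in Nmnat2 knockdown and 12.3, 16.9 and 9.58 ppm in scramble libraries. Basp1, the related membrane protein, had 70.4, 89.7 and 83.9 ppm in Nmnat1 knockdown, 245.7, 171.0 and 277.4 ppm in Nmnat2 knockdown and 90.1, 76.1 and 103.6 ppm in scramble libraries. In both genes every Nmnat2 knockdown library, N2_2 included, was above every other library, and the Nmnat1 knockdown and scramble ranges overlapped. Basp1 rose in Nmnat2 knockdown over scramble cells by limma (log2 fold change 1.34 ± 0.22, adjusted p = 0.0379), and the fold change was 1.54 ± 0.15 (adjusted p = 0.000170) without N2_2. Leaving out any other single library of the table ended this call, with adjusted p from 0.0905 (without N1_1) to 0.159 (without C2), while the fold change stayed between 1.19 and 1.58 in all 14 alternatives. Gap43 did not pass against scramble cells (1.04 ± 0.33, adjusted p = 0.160). Nmnat1 knockdown cells had less than Nmnat2 knockdown cells of both Basp1 (-1.47 ± 0.22, adjusted p = 0.00832) and Gap43 (-1.62 ± 0.33, adjusted p = 0.0352).

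Uchl1, the ubiquitin hydrolase used as a pan-neuronal marker, had 63.3, 73.2 and 59.0 ppm in Nmnat1 knockdown, 138.4, 109.4 and 136.3 ppm in Nmnat2 knockdown and 77.3, 79.9 and 65.3 ppm in scramble libraries. Elavl3, coding for the neuronal RNA-binding protein HuC, had 3.43, 3.50 and 5.14 ppm in Nmnat1 knockdown, 18.5, 19.1 and 22.8 ppm in Nmnat2 knockdown and 7.88, 5.53 and 10.8 ppm in scramble libraries. In Elavl3, library N2_2 lay between the other Nmnat2 knockdown libraries, and the 3 groups did not overlap. Between the arms, Nmnat1 knockdown cells had less Uchl1 (-0.96 ± 0.18, adjusted p = 0.0259) and less Elavl3 (-2.08 ± 0.31, adjusted p = 0.00874). Against scramble cells, Uchl1 (0.78 ± 0.18, adjusted p = 0.0951) and Elavl3 (1.26 ± 0.31, adjusted p = 0.105) in Nmnat2 knockdown cells, and Elavl3 (-0.83 ± 0.31, adjusted p = 0.386) in Nmnat1 knockdown cells, did not pass.

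**Figure D2:**
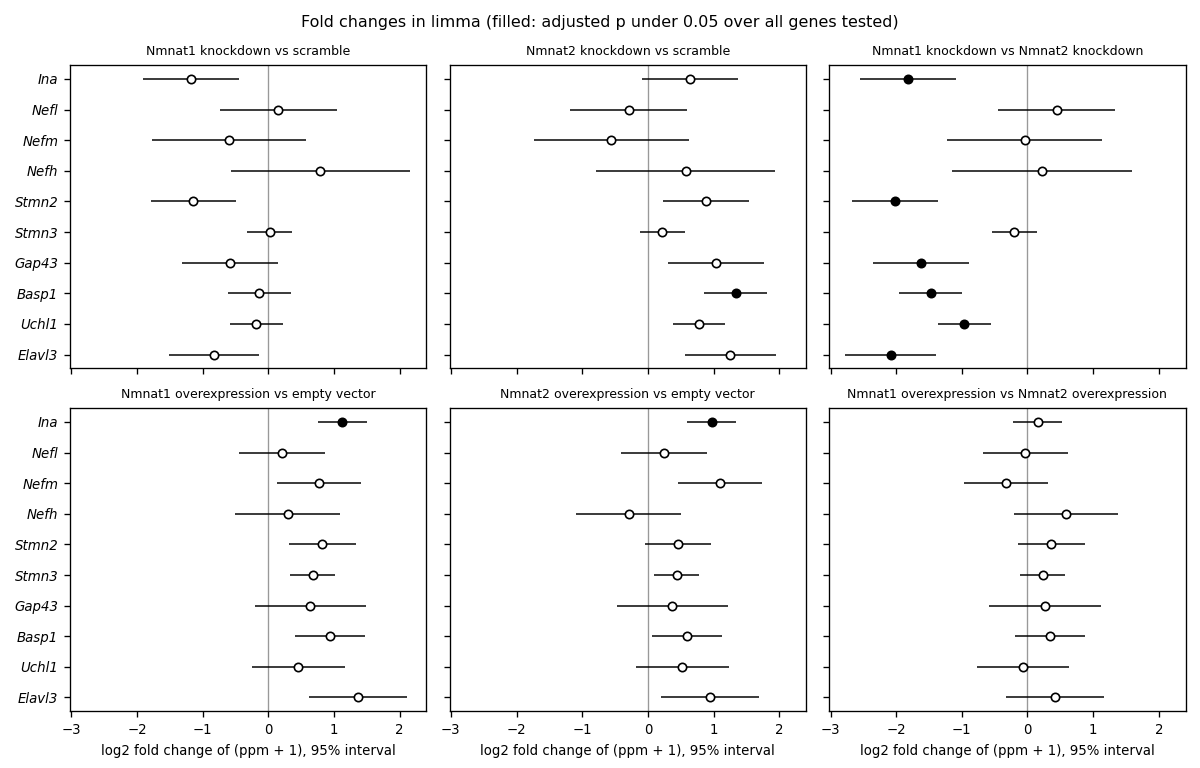
Log2 fold change of each gene (x axis, log2 of ppm + 1) with its 95% interval in 6 comparisons, 3 per table, filled where the adjusted p over all genes tested was under 0.05. Filled points are Basp1 in Nmnat2 knockdown against scramble cells, 6 genes in Nmnat1 against Nmnat2 knockdown cells, and Ina in each overexpression arm against empty vector cells.

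Counted over the list, 0 of the 10 genes passed in Nmnat1 knockdown against scramble cells, where 0.144% of all genes tested passed. An unadjusted limma p under 0.05 was held by 3 of the 10 and by 2338 of all 22233 genes tested. In Nmnat2 knockdown against scramble cells 1 passed, higher, where 0.436% of all genes passed and 0.0765% passed as higher. There 5 of the 10 and 3742 of all 22233 genes had an unadjusted limma p under 0.05. In Nmnat1 against Nmnat2 knockdown cells the 6 that passed were all lower. The ranges of the 2 arms did not overlap in 7 genes that were lower (the 6 and Stmn3; 6.37% of all genes were lower without overlap) and in 1 that was higher (Nefl; 19.0%). Against scramble cells, Nmnat2 knockdown cells were higher without overlap in 6 (Stmn2, Stmn3, Gap43, Basp1, Uchl1 and Elavl3), against 4.73% of all genes. Nmnat1 knockdown cells did not overlap scramble cells in 4, lower in 3 (Ina, Stmn2 and Elavl3) and higher in 1 (Nefh), against 24.8% of all genes in either direction. The median log2 fold change of the 10 was -0.38 in Nmnat1 knockdown, 0.71 in Nmnat2 knockdown and -1.22 between the arms, beside -0.00338, -0.23 and 0.25 over all genes tested. The arms share their scramble libraries, so that their fold changes are not independent of each other.

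Without library N2_2, the counts were 2 of 10, both lower (Ina and Stmn2), in Nmnat1 knockdown against scramble cells and 6 of 10, all higher (Ina, Stmn2, Gap43, Basp1, Uchl1 and Elavl3), in Nmnat2 knockdown against scramble cells. Between the arms the same 6 passed as lower in Nmnat1 knockdown cells. The share of all genes tested that passed also grew without it, to 8.43%, 15.5% and 13.5%, and the shares that passed in the direction counted were 3.60% lower, 7.99% higher and 7.02% lower. Leaving out N1_1, N1_2 or N1_3 reduced the 6 calls between the arms to 1 each, Stmn2 without N1_1 (adjusted p = 0.0414), Basp1 without N1_2 (0.0452) and Elavl3 without N1_3 (0.0454). Over all genes these fits called 106, 93 and 83 genes in place of 458, and the share that passed as lower was 0.195%, 0.186% and 0.169%. Leaving out N2_1 reduced them to 3 (Stmn2, Basp1 and Elavl3) and leaving out N2_3 to 2 (Stmn2 and Basp1), where 194 and 176 genes passed in all and 0.282% and 0.268% passed as lower. Scaling by the median of ratios gave a median over all genes of -0.04 in place of -0.23 in Nmnat2 knockdown against scramble cells, with 66 genes higher and 33 lower in place of 17 higher and 80 lower. Under that scaling Basp1 (adjusted p = 0.0161) and Uchl1 (0.0461) passed there, and the same 6 genes passed between the arms, where the genes passing were 202 higher and 394 lower in place of 299 higher and 159 lower.

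**Figure D3:**
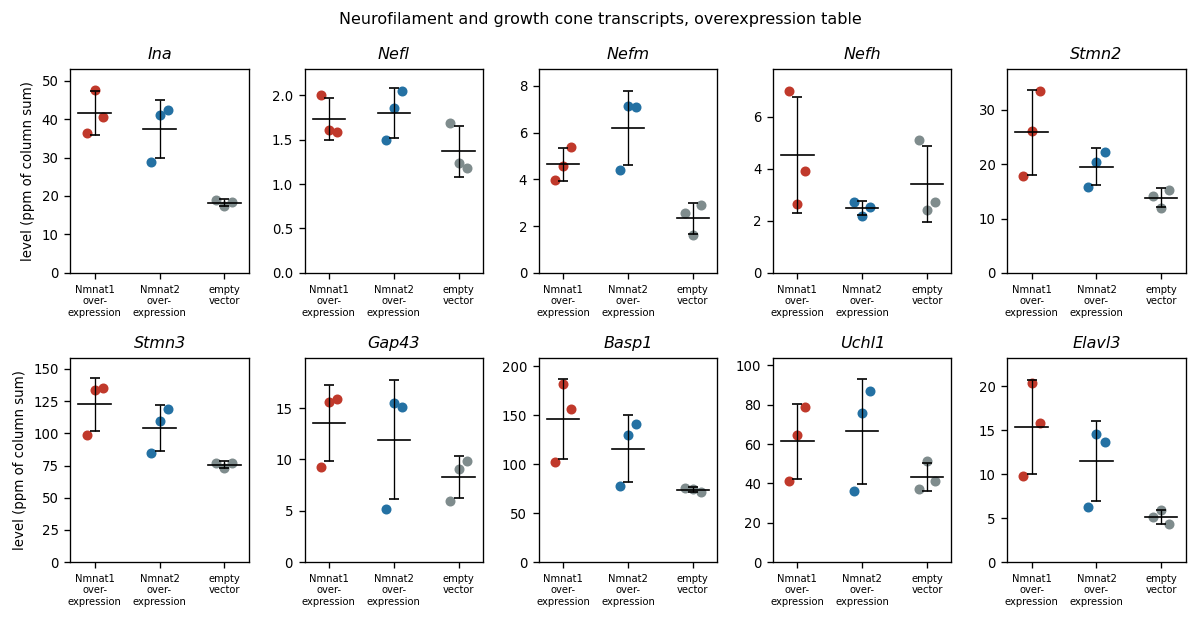
Level of each gene (ppm, linear axes of different height) in the 3 libraries of Nmnat1 overexpression, Nmnat2 overexpression and empty vector cells, with the mean and SD as bars. Ina lies at 28.8 to 47.6 ppm in the 6 overexpression libraries, against 17.4 to 19.0 ppm in empty vector libraries.

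Overexpression of either enzyme went with more Ina. The other 9 genes did not pass the test, and 6 of the 10 were higher without overlap in each arm, against 7.74% of all genes tested in Nmnat1 and 8.60% in Nmnat2 overexpression cells. The 2 arms were not told apart in any of the 10.

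Ina had 36.3, 47.6 and 40.5 ppm in Nmnat1 overexpression, 28.8, 41.1 and 42.3 ppm in Nmnat2 overexpression and 19.0, 17.4 and 18.5 ppm in empty vector libraries. Every overexpression library was above every empty vector library. Ina rose in Nmnat1 overexpression (log2 fold change 1.13 ± 0.17, limma adjusted p = 0.0421) and in Nmnat2 overexpression cells (0.97 ± 0.17, adjusted p = 0.0414). Both calls held without N1_1 (adjusted p = 0.0180 for Nmnat1 and 0.0285 for Nmnat2 overexpression) and without N2_1 (0.00530 and 0.00631). Both were lost when any other single library was left out, with adjusted p from 0.0651 (without N2_3, Nmnat1 overexpression) to 0.247 (without N1_2, Nmnat1 overexpression). Over the 16 alternatives the fold change of Ina stayed between 1.03 and 1.25 in Nmnat1 overexpression and between 0.88 and 1.17 in Nmnat2 overexpression cells. The partly overlapping Nt5c2 averaged 48.5 ± 9.5 ppm in Nmnat1 overexpression, 50.1 ± 6.1 ppm in Nmnat2 overexpression and 41.5 ± 5.7 ppm in empty vector cells (SD, n = 3 each) and did not pass.

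Among the neurofilament subunits, Nefm had 3.97, 4.57 and 5.38 ppm in Nmnat1 overexpression, 4.38, 7.14 and 7.08 ppm in Nmnat2 overexpression and 2.54, 1.61 and 2.89 ppm in empty vector libraries. Both arms lay above the empty vector range, with log2 fold changes of 0.77 ± 0.29 (adjusted p = 0.402) in Nmnat1 and 1.10 ± 0.29 (adjusted p = 0.153) in Nmnat2 overexpression cells. Nefl stayed between 1.18 and 2.04 ppm in all 9 libraries, and Nefh between 2.19 and 7.004 ppm, with overlapping groups. The highest Nefh values were in the libraries numbered 1 of Nmnat1 overexpression (7.004 ppm) and empty vector (5.10 ppm).

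Stmn2 had 17.9, 26.2 and 33.5 ppm in Nmnat1 overexpression, 15.7, 20.5 and 22.3 ppm in Nmnat2 overexpression and 14.2, 11.97 and 15.3 ppm in empty vector libraries. Stmn3 had 98.9, 133.9 and 135.1 ppm in Nmnat1 overexpression, 84.5, 109.4 and 119.0 ppm in Nmnat2 overexpression and 77.2, 72.8 and 77.2 ppm in empty vector libraries. Neither stathmin overlapped the empty vector range in either arm, and in both the library numbered 1 was the lowest of its arm. Stmn3 had log2 fold changes of 0.67 ± 0.15 (limma adjusted p = 0.133) in Nmnat1 and 0.44 ± 0.15 (adjusted p = 0.324) in Nmnat2 overexpression cells. Its fold changes against scramble cells in the knockdown table were smaller.

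Gap43 had 9.27, 15.6 and 15.9 ppm in Nmnat1 overexpression, 5.21, 15.5 and 15.1 ppm in Nmnat2 overexpression and 5.94, 9.11 and 9.84 ppm in empty vector libraries. Basp1 had 101.7, 181.3 and 156.2 ppm in Nmnat1 overexpression, 77.4, 130.0 and 140.5 ppm in Nmnat2 overexpression and 75.7, 75.1 and 71.2 ppm in empty vector libraries. The library numbered 1 was the lowest of its arm in both genes. In Gap43 it lay within or below the empty vector range, and in Basp1 above it, at 101.7 ppm in Nmnat1 and 77.4 ppm in Nmnat2 overexpression cells. Basp1 differed by 0.93 ± 0.24 (adjusted p = 0.179) in Nmnat1 and 0.60 ± 0.24 (adjusted p = 0.417) in Nmnat2 overexpression cells.

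Uchl1 had 41.0, 64.5 and 78.6 ppm in Nmnat1 overexpression, 36.1, 76.0 and 87.0 ppm in Nmnat2 overexpression and 37.1, 51.2 and 41.3 ppm in empty vector libraries. Elavl3 had 9.80, 20.4 and 15.9 ppm in Nmnat1 overexpression, 6.25, 14.5 and 13.6 ppm in Nmnat2 overexpression and 5.14, 5.93 and 4.38 ppm in empty vector libraries. Uchl1 overlapped the empty vector range through the libraries numbered 1, whereas Elavl3 was above that range in all 6 overexpression libraries. Elavl3 had the largest fold change of the 10 in Nmnat1 overexpression cells (1.36 ± 0.34), though it did not pass (adjusted p = 0.164), and 0.95 ± 0.34 (adjusted p = 0.331) in Nmnat2 overexpression cells.

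Of the 10 genes, 1 (Ina) passed as higher in Nmnat1 overexpression against empty vector cells. Of all genes tested there, 0.121% passed and 0.0917% passed as higher. An unadjusted limma p under 0.05 was held by 6 of the 10 and by 1983 of all 20725 genes tested. Ina also passed as higher in Nmnat2 overexpression cells, where 0.550% of all genes passed and 0.203% as higher. There 5 of the 10 and 2132 of all 20725 genes had an unadjusted limma p under 0.05. The 6 genes that were higher without overlap were the same in both arms (Ina, Nefm, Stmn2, Stmn3, Basp1 and Elavl3), and both arms share the empty vector libraries. The median log2 fold change of the 10 was 0.72 in Nmnat1 and 0.49 in Nmnat2 overexpression cells, beside -0.04 and 0.06 over all genes. Scaling by the median of ratios left 0 of the 10 passing in each arm, with Ina at adjusted p = 0.0837 in Nmnat1 and 0.0862 in Nmnat2 overexpression cells. It changed the genes passing in Nmnat1 overexpression cells to 8 higher and 1 lower in place of 19 higher and 6 lower. At an unadjusted limma p under 0.05, 0 of the 10 and 924 of all 20725 genes tested differed between the arms. At an adjusted p under 0.05, 0 of the 10 and 0.0193% of all genes did. Of the 10, 0 were without overlap between the arms (8.34% of all genes). The 95% interval of that difference was -0.22 to 0.53 for Ina, -0.19 to 0.87 for Basp1 and -0.33 to 1.16 for Elavl3, and widest for Gap43, at -0.58 to 1.11.

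Without the 3 libraries numbered 1, 7 of the 10 passed as higher in Nmnat1 overexpression cells (Ina, Stmn2, Stmn3, Gap43, Basp1, Uchl1 and Elavl3), and 7 in Nmnat2 overexpression cells (Ina, Nefm, Stmn3, Gap43, Basp1, Uchl1 and Elavl3). In that fit of 2 libraries a group, 11.1% and 8.18% of all genes passed, 6.21% and 4.65% as higher. The fold changes were then 1.25 ± 0.12 in Nmnat1 and 1.17 ± 0.12 in Nmnat2 overexpression cells for Ina, 1.19 ± 0.09 and 0.88 ± 0.09 for Basp1, and 1.64 ± 0.20 and 1.30 ± 0.20 for Elavl3.

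**Figure D4:**
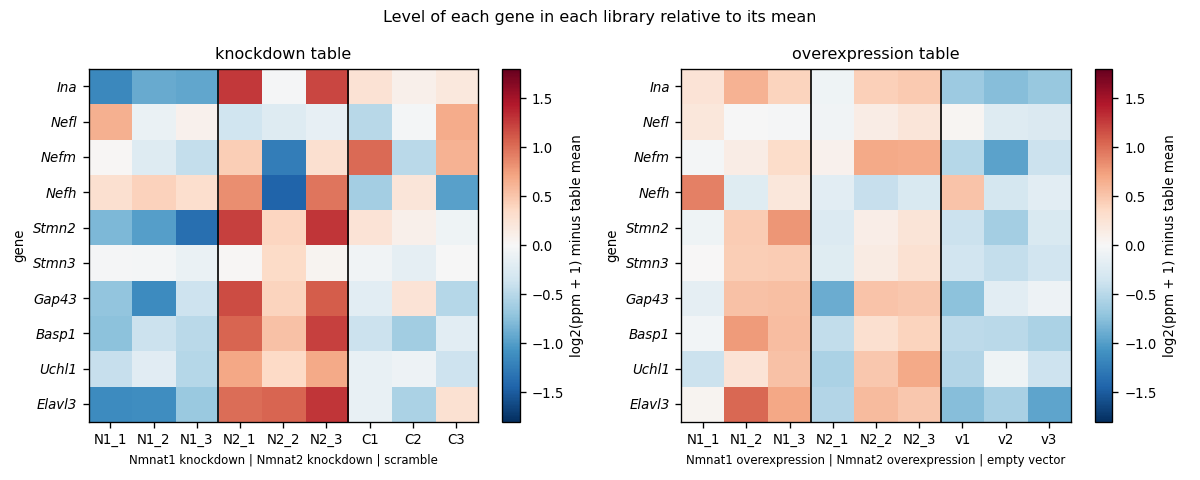
Level of each of the 10 genes (rows) in each library (columns, named as in the tables), as log2(ppm + 1) minus the mean of the gene over the 9 libraries of its table. In the knockdown table N2_2 lies below N2_1 and N2_3 in Ina, Nefm, Nefh, Stmn2, Gap43, Basp1 and Uchl1, and in both overexpression arms the library numbered 1 is the lowest of its arm in every row but Nefl and Nefh.

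Seen by library, the mean of the 10 genes, each centred on its own table, was -0.40, -0.47 and -0.45 in Nmnat1 knockdown, 0.74, 0.01 and 0.79 in Nmnat2 knockdown and -0.05, -0.13 and -0.04 in scramble libraries on the log2 scale. It was 0.07, 0.40 and 0.45 in Nmnat1 overexpression, -0.31, 0.29 and 0.36 in Nmnat2 overexpression and -0.38, -0.47 and -0.41 in empty vector libraries. N2_2 of the knockdown table and the libraries numbered 1 of both overexpression arms thus held the values of their arms closest to the control. The mean of N2_2 takes in its low Nefh and Nefm values, and the median of the 10 genes was 0.35 in N2_2, against -0.13 to -0.04 in scramble libraries.

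Amacrine cell markers differed between these libraries in a partly like way, as did markers of some other cell types given below. The summed level of 12 amacrine markers, among them the transcription factors Tfap2a and Tfap2b, was 226 to 266 ppm in Nmnat1 knockdown libraries, 926, 368 and 931 ppm in Nmnat2 knockdown libraries and 395 to 410 ppm in scramble libraries. It was 421, 624 and 612 ppm in Nmnat1 overexpression, 359, 570 and 524 ppm in Nmnat2 overexpression and 271 to 306 ppm in empty vector libraries. Of the 12, 1 passed as lower in Nmnat1 knockdown and 1 as higher in Nmnat2 knockdown against scramble cells, 5 passed as lower between the knockdown arms, and 1 and 2 passed as higher in Nmnat1 and Nmnat2 overexpression cells. Summed rod markers (13 genes) ran the other way in part, at 7391 to 7466 ppm in Nmnat1 knockdown, 2438 to 5677 ppm in Nmnat2 knockdown and 7091 to 7297 ppm in scramble libraries. They summed to 3398 to 6046 ppm in Nmnat1 overexpression, 3309 to 4587 ppm in Nmnat2 overexpression and 6952 to 7409 ppm in empty vector libraries. Of 12 rod markers tested, 3 passed as lower in Nmnat2 knockdown against scramble cells and 2 as lower in Nmnat2 overexpression cells. Between the knockdown arms 4 passed, as higher in Nmnat1 knockdown cells.

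Horizontal cell markers (6 genes, 4 tested) summed to 26.5 to 28.3 ppm in Nmnat1 knockdown, 51.3, 12.4 and 51.4 ppm in Nmnat2 knockdown and 32.0 to 49.7 ppm in scramble libraries, and 0 passed. They summed to 58.7 to 66.7 ppm in Nmnat1 overexpression, 54.4 to 70.5 ppm in Nmnat2 overexpression and 33.3 to 34.8 ppm in empty vector libraries, and 1 passed, as higher, in Nmnat2 overexpression cells. Müller glia markers (11 genes, 10 tested) summed to 2516 to 2653 ppm in Nmnat1 knockdown, 2055 to 3370 ppm in Nmnat2 knockdown and 4818 to 5488 ppm in scramble libraries. Of these, 1 passed as lower in Nmnat1 and 2 in Nmnat2 knockdown against scramble cells, and in the overexpression table the ranges overlapped and 0 passed. Vascular markers (7 genes, 5 tested) summed to 34.4 to 38.4 ppm in Nmnat1 knockdown and 55.3 to 66.4 ppm in scramble libraries. They were 64.7, 18.2 and 72.6 ppm in Nmnat2 knockdown libraries. Their overexpression sums were 74.7, 117 and 124 ppm (Nmnat1), 68.4, 143 and 137 ppm (Nmnat2) and 88.1 to 93.2 ppm (empty vector), and 0 passed in either table. Bipolar cell markers (11 genes, 8 tested) summed to 2385 to 2544 ppm in Nmnat1 knockdown, 1698 to 1755 ppm in Nmnat2 knockdown and 2322 to 2411 ppm in scramble libraries, with 0 passing. They summed to 2099 to 2282 ppm in Nmnat1 overexpression, 2017 to 2229 ppm in Nmnat2 overexpression and 2477 to 2698 ppm in empty vector libraries. Both arms thus lay below the controls, and 1 marker passed, as lower, in Nmnat2 overexpression cells. Of 12 cone markers, 2 passed as lower in Nmnat2 knockdown against scramble cells, 3 as higher in Nmnat1 than in Nmnat2 knockdown cells and 4 as lower in Nmnat2 overexpression cells. Their sums split the Nmnat2 knockdown arm, at 1380, 4809 (N2_2) and 1310 ppm. Nmnat1 knockdown libraries had 3445 to 3563 ppm and scramble libraries 3119 to 3550 ppm. Cone sums were 1816 to 2482 ppm in Nmnat1 overexpression, 1651 to 1795 ppm in Nmnat2 overexpression and 2462 to 2673 ppm in empty vector libraries. Neurogenic precursor markers (11 genes) summed to 2081 to 2106 ppm in Nmnat1 knockdown and 2253 to 2395 ppm in scramble libraries. They were 2753, 1795 and 2788 ppm in Nmnat2 knockdown libraries, and the ranges of the overexpression table overlapped. Of these, 1 passed as lower between the knockdown arms and 1 as higher in Nmnat2 overexpression cells. Progenitor markers (12 genes) summed to 796 to 946 ppm in Nmnat1 knockdown and 1006 to 1135 ppm in scramble libraries. They were 1125, 735 and 1119 ppm in Nmnat2 knockdown libraries. Their overexpression sums were 1002, 1471 and 1385 ppm (Nmnat1), 694, 1281 and 1351 ppm (Nmnat2) and 1043 to 1157 ppm (empty vector). Of the 12, 1 passed, as lower, between the knockdown arms. The part of any of these marker groups in the levels of the 10 genes was not tested.

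**Figure D5:**
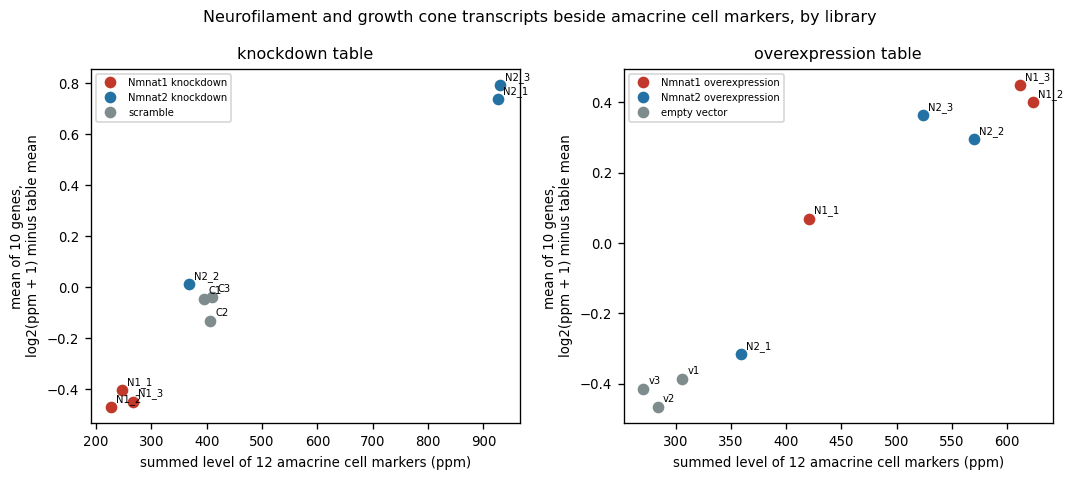
Mean of the 10 genes per library (y axis, log2(ppm + 1) minus the table mean) against the summed level of 12 amacrine cell markers (x axis, ppm), 1 point per library, by table. In the knockdown table N2_1 and N2_3 lie at the upper right (926 and 931 ppm) and the Nmnat1 knockdown libraries at the lower left, and in the overexpression table the empty vector libraries lie at the lower left.

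Markers of retinal ganglion cells, the neurons best known for these transcripts, were low. The 14 of them (11 tested in this table) summed to 35.9 to 49.0 ppm in Nmnat1 knockdown, 46.0 to 57.0 ppm in Nmnat2 knockdown and 40.4 to 87.0 ppm in scramble libraries, with overlapping ranges and 0 passing in either knockdown arm. In the overexpression table they summed to 55.7 to 70.1 ppm in Nmnat1 overexpression, 53.0 to 73.0 ppm in Nmnat2 overexpression and 34.4 to 37.4 ppm in empty vector libraries. Both arms thus lay above the controls. Of the 14 markers, 10 were tested there, with 0 passing in Nmnat1 and 1 passing, as higher, in Nmnat2 overexpression cells. The defining factors Pou4f2 and Pou4f3 were at most 0.548 and 0.582 ppm in any library. Other markers of the list were higher: Pou4f1 reached 4.15 ppm (Nmnat2 knockdown), Isl1 13.2 ppm (Nmnat2 overexpression) and Atoh7 21.2 ppm (Nmnat1 knockdown). Pou4f1 had 1.33 to 2.10 ppm in Nmnat1 knockdown and 0.750 to 0.779 ppm in scramble libraries. Atoh7 averaged 17.7 ppm in Nmnat1 knockdown and 8.39 ppm in scramble cells, so that the sum holds markers that moved apart.

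The genes whose pattern over all 18 libraries was most like that of 9 of the 10 were named by the root mean square difference of centred log2 levels among 10045 genes, as a description. For Ina it was Rasgef1b (0.15), for Uchl1 Sox2 (0.17) and for Nefl B3glct (0.18). For Basp1 it was Tle4 (0.21), for Stmn2 Hs3st1 (0.22), for Elavl3 Scrt2 (0.27), for Gap43 Nnat (0.27), for Nefm Asic2 (0.28) and for Nefh Tmem206 (0.34). Within the list, Ina and Stmn2 were the most alike pair (0.27), ahead of Basp1 with Uchl1 and Basp1 with Elavl3 (both 0.31). A gene that did not vary at all would differ from Ina by 0.70 and from Nefl by 0.29, so that a small value means less for a steady gene.

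Genes of the same pathways outside the 10 were taken from 8 lists of 78 genes, of which 75 were tested in the knockdown and 73 in the overexpression table. The number passing was 0 in Nmnat1 knockdown against scramble cells, 1 (lower) in Nmnat2 knockdown against scramble cells, 2 (1 higher and 1 lower) between the knockdown arms, 1 (higher) in each overexpression arm and 0 between the overexpression arms. Over all genes tested the share passing in these 6 comparisons was 0.144%, 0.436%, 2.06%, 0.121%, 0.550% and 0.0193%. The median log2 fold change over the lists lay between 0.01 and 0.15 in all 6 comparisons. Among 2 other stathmins, Stmn1, the widely expressed family member, averaged 1681 ± 100 ppm in Nmnat1 knockdown and 3131 ± 472 ppm in Nmnat2 knockdown cells, beside 2026 ± 21 ppm in scramble cells. Stmn1 was lower in Nmnat1 than in Nmnat2 knockdown cells (-0.89 ± 0.14, limma adjusted p = 0.0140). Among 15 tubulin and microtubule genes, Tubb2a, a beta-tubulin of neurons, averaged 329 ± 51 ppm in Nmnat1 overexpression, 293 ± 58 ppm in Nmnat2 overexpression and 139 ± 10 ppm in empty vector cells. Tubb2a rose in both Nmnat1 (1.23 ± 0.16, adjusted p = 0.0247) and Nmnat2 overexpression cells (1.05 ± 0.16, adjusted p = 0.0258). Tuba4a, an alpha-tubulin, averaged 36.1 ± 10.1 ppm in Nmnat1 knockdown, 15.7 ± 2.2 ppm in Nmnat2 knockdown and 47.5 ± 5.4 ppm in scramble cells. Tuba4a fell in Nmnat2 knockdown against scramble cells (-1.54 ± 0.24, adjusted p = 0.0373) and was higher in Nmnat1 than in Nmnat2 knockdown cells (1.12 ± 0.24, adjusted p = 0.0450).

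In the other 6 lists no gene passed in any of the 6 comparisons. Of 18 other growth cone genes, 17 were tested. The smallest unadjusted p belonged to Crmp1, a collapsin response mediator (258 ± 65 ppm in Nmnat1 overexpression and 115 ± 3 ppm in empty vector cells, adjusted p = 0.111). Next came its relative Dpysl2, with 37.0 ± 4.8 ppm in Nmnat1 overexpression and 22.5 ± 2.1 ppm in empty vector cells (adjusted p = 0.124). Of 11 axon survival and degeneration genes the smallest belonged to Cyfip2, a regulator of actin (52.5 ± 4.3 ppm in Nmnat1 overexpression and 30.02 ± 3.13 ppm in empty vector cells, adjusted p = 0.0690). The kinase gene Mapk10 followed, with 13.7 ± 3.8 ppm in Nmnat2 overexpression and 4.79 ± 2.58 ppm in empty vector cells (adjusted p = 0.104). Of 17 axonal transport genes the smallest belonged to the kinesin gene Kif3a (66.5 ± 2.5 ppm in Nmnat1 overexpression and 48.0 ± 2.5 ppm in empty vector cells, adjusted p = 0.129). The dynactin gene Dctn1 averaged 345 ± 25 ppm in Nmnat1 knockdown and 159 ± 68 ppm in Nmnat2 knockdown cells (adjusted p = 0.0729). Elavl4, a neuronal relative of Elavl3, averaged 16.8 ± 6.5 ppm in Nmnat2 knockdown and 5.498 ± 2.889 ppm in scramble cells (1.47 ± 0.41, adjusted p = 0.124). Its relative Elavl2 averaged 10.4 ± 1.2 ppm in Nmnat2 overexpression and 6.59 ± 0.58 ppm in empty vector cells (adjusted p = 0.359). Among other intermediate filament genes, the glial Gfap averaged 0.591 ± 0.544 ppm in Nmnat2 knockdown and 2.75 ± 1.01 ppm in scramble cells (adjusted p = 0.199). Vimentin, Vim, averaged 109.7 ± 41.1 ppm in Nmnat2 overexpression and 69.7 ± 1.0 ppm in empty vector cells (adjusted p = 0.487). Uchl3, a relative of Uchl1, averaged 106.1 ± 10.5 ppm in Nmnat1 overexpression and 77.1 ± 3.3 ppm in empty vector cells (adjusted p = 0.179). Uchl4, a mouse gene closely related to Uchl3, averaged 2.42 ± 0.83 ppm in Nmnat2 knockdown and 4.98 ± 0.92 ppm in scramble cells (adjusted p = 0.306).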

How the data were processed

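The deposited tables are named TPM, but their columns summed to 14.4 to 29.6 times 1000000 (knockdown) and 17.3 to 26.2 times 1000000 (overexpression). They were read as a signal that the authors scaled for length, in a unit that the sources used here do not give. The build GRCm38.p6, Salmon 0.11.3 and sleuth 0.30.0 appear, without a role, per the submitters' processing notes. Per the labels' protocols, cDNA was made from 1 ng of RNA with SMART-Seq v4 and libraries with Nextera DNA Flex, which do not mark strand. Both tables end in a broken line, which was dropped.

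Each column was divided by its sum and multiplied by 1000000 (ppm). Genes that reached 1 ppm in 3 or more of their table's 9 libraries were fitted as log2(ppm + 1) with limma 3.58.1 (R 4.3.3), the 3 groups of a table in 1 fit, with a trend in the variance. Tests were two-sided and p-values were adjusted by Benjamini-Hochberg over all genes tested, with a threshold of 0.05. Fold changes refer to log2(ppm + 1) and so understate those of low genes. No test crosses the tables. The fit was tested on simulated data of independent libraries of equal spread, none of which stood apart. That test therefore does not bear on how the calls moved with single libraries. Whole reads could not be recovered for nearly all genes, so no count test was run; low values of single-transcript genes within 0.1 of a whole number of reads (79.8% to 87.2% per library, 20% by chance) gave the depth. Knockdown columns show the group of a library but not which sample it is, and are called by their column names. The titles of 1 Nmnat2 knockdown and 1 Nmnat2 overexpression sample name Nmnat3, and their other labels, which name Nmnat2, were followed. Coordinates and overlaps are from GENCODE M21 (GRCm38; 34356 of 34396 identifiers found), which the authors may not have used. Text and tables were handled in Python 3.11.15, pandas 2.3.3 and numpy 2.4.6, and figures drawn with matplotlib 3.10.9.

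The 10 genes, the lists and the tests were chosen with earlier results of these data known. Named beside the 10 were Nmnat1 and Nmnat2, every gene of a list that passed in a comparison (where none did, up to 2 with the smallest p), and for each of the 10 the gene of most like pattern, 1 of which is not reported here. Alternatives were the pseudocount of 0.25, no filter, median-of-ratios scaling, array weights, a fit on the 2 groups compared, the replicate number as a block (overexpression table), each library left out, and the 3 overexpression libraries numbered 1 left out.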

Additional observations from a re-analysis of the deposited data

How the results depend on the processing

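Each of the 10 genes kept its direction, in all alternatives run, in every comparison in which it passed as reported, while the number of the 10 genes passing moved. In Nmnat1 knockdown against scramble cells it was 0 in the fit reported, 2 with array weights or a fit on the 2 groups compared, and 0 to 2 with a library left out. In Nmnat2 knockdown against scramble cells it was 1, and became 0 with no filter or a fit on the 2 groups, 2 with median-of-ratios scaling, 7 with array weights and 0 to 6 with a library left out. Between the knockdown arms it was 6, 3 in a fit on the 2 groups, and 1 to 6 with a library left out. In Nmnat1 overexpression against empty vector cells it was 1, 0 with no filter or median-of-ratios scaling, 5 with array weights, 7 without the 3 libraries numbered 1, and 0 to 4 with a library left out. In Nmnat2 overexpression cells it was 1, 0 with no filter, median-of-ratios scaling or a fit on the 2 groups, 6 with array weights, 7 without the libraries numbered 1, and 0 to 1 with a library left out. Between the overexpression arms it was 0 in all. The replicate block, run in the overexpression table, gave 4, 1 and 0 of the 10 in the same 3 comparisons, and 187, 269 and 4 genes in all against 25, 114 and 4 without it. Same-numbered libraries there had deviations correlated at 0.03 to 0.46 across genes, 2 of them under 0.1, and N1_3 and N2_3 did not correlate best with their own number. Libraries numbered 1 correlated with those of other groups numbered 2 or 3 at -0.38 to -0.06, and those numbered 2 with those numbered 3 at 0.03 to 0.24. The libraries numbered 1 thus had deviations in common. Since 2 and 3 were not set apart in this way, the numbers were not taken as pairs. In the knockdown table no block was fitted, since its columns are tied to groups and not to numbered samples; columns sharing a number had deviations correlated at -0.04 to 0.03. Over all genes, the number passing ran from 0 to 1826 (32 as reported) in Nmnat1 knockdown against scramble cells, from 0 to 5101 (97) in Nmnat2 knockdown against scramble cells, and 83 to 6072 (458) between these arms. It ran from 3 to 1951 (25) in Nmnat1 overexpression and 3 to 1431 (114) in Nmnat2 overexpression against empty vector cells, and 2 to 51 (4) between those arms. Array weights and fits without the libraries that stood apart gave the highest counts, and the cause was not tested. With array weights, 450 of 22233 genes passed as lower in Nmnat1 and 2171 as higher in Nmnat2 knockdown against scramble cells. Between the knockdown arms 2502 then passed as lower. Of 20725 genes, 775 then passed as higher in Nmnat1 and 646 in Nmnat2 overexpression cells. A fit on Nmnat1 knockdown and scramble cells alone called 457 of 20933 genes lower. Without overexpression library N1_1 or N2_1, 122 of 19779 and 117 of 19310 genes passed as higher in Nmnat1 overexpression cells. Nefl, at about 33 to 118 reads, and Nefh, at 12 to 361, rest on few reads.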
